A study of Mus musculus with 18 samples.

Results

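The genes described here are 39 named components of the NF-κB pathway in the mouse. They include the 5 subunits of the transcription factor, the inhibitors that hold it in the cytoplasm, and 3 related nuclear IκB proteins. The kinases, adaptors and ubiquitin ligases that release it and its feedback inhibitors are further parts. The rest are 5 receptors and sensors that signal to it, and 4 effector genes known as its targets. All 39 were picked by name, with earlier results of these data known. The 2 deposited tables hold 14332 genes between them, 13452 in the table of enteric glial cells (EGCs) and 11200 in the table of bone marrow-derived macrophages (BMDMs). All 39 NF-κB genes had a row for the BMDMs and 36 for the EGCs, where Nfkbid, Traf1 and Nod2 had none.

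The study asked how IL-1 changes the glia of the gut wall and how what the glia then release acts on macrophages. Primary EGC cultures were grown from the small bowel muscularis externa of mice labelled Bl6 and were given IL-1β at 10 ng/ml for 24 h, or served as the vehicle control (3 libraries per group). BMDMs came from Il1R1-KO mice, so that IL-1β carried over from the glia could not act through this receptor, and received for 3 h the medium of IL-1β-treated EGCs (CM-IL1), the medium of vehicle-treated EGCs (CM-Veh) or RPMI (4 libraries per group). The conditioned media had been on the glia for 24 h, and the 18 libraries were made as 3′ tag libraries of total RNA. The RPMI cells never received glial medium, which differs from RPMI also in its base and supplements, so a difference of either conditioned medium from RPMI cannot be told apart into glial products and culture medium. The EGCs came from neurospheres that had been allowed to differentiate, a culture that also holds other cell types, and the BMDMs were grown with CSF-1.

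NF-κB is a family of dimers made from RelA, RelB, c-Rel and the products of Nfkb1 and Nfkb2. In the canonical pathway, IL-1, TNF or bacterial products activate the IκB kinase complex through TRAF and RIP adaptors and their ubiquitin chains, the IκB proteins are degraded, and the freed dimers enter the nucleus. Several of the genes they then switch on encode their own inhibitors, among them IκBα and A20, which closes a negative feedback loop. In the non-canonical pathway, receptors such as CD40 relieve the TRAF3- and cIAP-dependent block on processing of the Nfkb2 product, which pairs with RelB. In the gut, IL-1β, TNF and bacterial cell wall fragments are the usual triggers of the pathway in glia and macrophages.

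The promoter sequences of the NF-κB genes are shown because dimers bind a short decamer that several of the inhibitor genes carry near their start. RefSeq promoter windows of build GRCm38.p6, 250 bases before to 50 after each transcription start, were found for 32 of the 39 genes. The NF-κB consensus decamer, searched on both strands with overlapping matches counted, was present in 12 of these 32 genes (37.5%), against 1388 of 27025 genes with a window in all (5.14%). The 60 bases below lie before the start, run 5′ to 3′ on the gene's own strand and have each match in capitals. They end at the last base before the start, except for Nfkbie (bases -131 to -72) and Rel (bases -116 to -57). In EGCs the means of the first 5 genes were past 1.5-fold higher with IL-1β, and those of the last 2 were not.
Nfkbia, chr12:55492648-55492707, minus strand: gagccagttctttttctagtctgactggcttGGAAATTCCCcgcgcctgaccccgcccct
Nfkbie, chr17:45555569-45555628, plus strand: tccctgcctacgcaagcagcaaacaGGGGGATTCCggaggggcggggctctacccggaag
Nfkb2, chr19:46304677-46304736, plus strand: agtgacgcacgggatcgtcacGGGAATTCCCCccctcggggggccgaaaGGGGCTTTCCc
Tnip1, chr11:54962941-54963000, minus strand: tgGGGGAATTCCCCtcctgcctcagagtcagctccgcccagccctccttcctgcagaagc
Traf3, chr12:111166310-111166369, plus strand: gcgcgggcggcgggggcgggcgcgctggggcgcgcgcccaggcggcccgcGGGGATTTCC
Rel, chr11:23771026-23771085, minus strand: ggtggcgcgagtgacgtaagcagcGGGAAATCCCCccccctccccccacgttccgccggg
Tnfaip3, chr10:19015411-19015470, minus strand: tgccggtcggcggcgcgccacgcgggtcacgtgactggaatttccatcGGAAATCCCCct

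In Nfkb2, Tnip1 and Rel the capitals run past 10 bases where matches overlap. The other genes with a match were Bcl3, Cyld, Nfkbid, Sod2 and Tank. A match describes these letters only, and no binding was measured. Of the 11 genes with a match and a row in EGCs, 5 were past 1.5-fold higher with IL-1β and 1 was past 1.5-fold lower. Of the 18 genes with a window and no match, 6 were higher and 3 lower, so genes that differed were found with and without the decamer. Only exact matches inside the windows were searched, so a gene without a match was not shown to lack variant or more distant sites. No window was found for Ripk2, Cd40, Relb, Ikbkb, Nfkbiz, Vcam1 and Nfkb1, which these counts leave out. Of them, Ripk2, Cd40, Relb, Nfkbiz and Vcam1 were past 1.5-fold higher in EGCs.

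All expression values below are the authors' mean of a group, a normalized signal whose 5 columns each add up to between 996052 and 997403. One mean per group carries no spread, so no difference below was tested or can be set against the error between libraries, and the precision of a mean is unknown. A gene is described as higher or lower where the ratio of 2 means passed 1.5-fold, the fold limit in the study's methods, among genes whose mean reached 1 in either group. Levels are compared between groups for 1 gene and not between genes, since it is not known whether the means were scaled by length. In bulk RNA, fewer cells of a type and less RNA per cell cannot be told apart. The labelled cell types were checked by their markers: 10 of 12 glial markers had a row in the EGCs, with Sox10 at 214 with IL-1β and 238 with vehicle, and all 13 macrophage markers had a row in the BMDMs, where no glial marker had one. In the EGCs all 10 fibroblast markers (summing to 15031 with IL-1β and 17736 with vehicle) and all 10 neuron markers (448 with IL-1β and 656 with vehicle) also had a row, and 5 of 13 macrophage markers did, without Adgre1, Ptprc, Itgam and Tyrobp. The macrophage markers summed to 159 with IL-1β and 144 with vehicle, of which Lyz2 made up 137 with IL-1β and 113 with vehicle, while their median was lower with IL-1β, at 3.53 against 8.45 with vehicle. All 7 smooth muscle markers also had a row in the EGCs (summing to 244 with IL-1β and 234 with vehicle). So did 5 of 6 endothelial markers (38.2 with IL-1β and 40.9 with vehicle) and 2 of 7 neutrophil markers (13.0 with IL-1β and 7.04 with vehicle). The part of these other cells in the values below was not tested. Il1r1, the gene targeted in the BMDM donors, had means of 9.57 with CM-IL1, 8.69 with CM-Veh and 2.88 with RPMI. Because 3′ tags may lie outside the deleted part, this does not check the genotype.

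Upon IL-1β treatment of EGCs, 16 of the 36 NF-κB genes had a mean past 1.5-fold higher (44.4%), against 4.25% of all 13445 genes kept, and 4 were past 1.5-fold lower (11.1%), against 21.2% of all genes. The higher genes were led by the adhesion molecule gene Icam1 (3.83-fold), the A20 partner Tnip1 (3.19-fold), the IκBε gene Nfkbie (3.15-fold) and the kinase gene Ripk2 (2.86-fold). The median log2 ratio was 0.45 over the NF-κB genes and -0.14 over all genes, and 27 of the 36 lay above the median of all. Because the genes were picked with earlier results known, these shares are a description and not independent evidence. When the ratios were centred on the median of all genes, 18 NF-κB genes were past the limit upwards and 4 downwards, while all genes split into 936 higher and 2236 lower, against 571 higher and 2855 lower as deposited. Of the 20 NF-κB genes past the limit, 2 had both means under 10.

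Of the 5 subunit genes, 3 were higher in IL-1β-treated EGCs and none was lower. Nfkb2 was at 66.3 with IL-1β and 33.0 with vehicle, and Relb, its partner in the non-canonical pathway, had 24.0 with IL-1β and 12.6 with vehicle. Rela, the transactivating subunit of the canonical dimer, had 85.0 with IL-1β and 47.2 with vehicle. The ratios were 2.00 for Nfkb2, 1.91 for Relb and 1.80 for Rela. Nfkb1, which encodes the usual partner of RelA, had 15.1 with IL-1β and 17.3 with vehicle, and Rel, a subunit best known from lymphoid and myeloid cells, had 5.96 with IL-1β and 5.21 with vehicle, both within the limit. The 3 higher subunits were thus both members of the non-canonical dimer and RelA.

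Among the inhibitors, both IκBα and IκBε genes were higher. Nfkbia, the fast feedback inhibitor, was at 339 with IL-1β and 171 with vehicle (1.99-fold), and Nfkbie had 12.5 with IL-1β and 3.97 with vehicle. Nfkbib, the gene of IκBβ, stayed within the limit at 22.9 with IL-1β and 16.5 with vehicle. The nuclear IκB proteins act on chromatin-bound dimers rather than in the cytoplasm. Nfkbiz, a coactivator of secondary targets such as Il6, was 2.01-fold higher at 112 with IL-1β and 55.9 with vehicle. Bcl3, which binds homodimers of the Nfkb1 and Nfkb2 products, had 48.0 with IL-1β and 38.8 with vehicle, within the limit.

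The kinase genes lay on both sides. Ikbke, an inducible kinase related to the IκB kinases, was at 9.51 with IL-1β and 5.60 with vehicle (1.70-fold higher), whereas Chuk, which encodes IKKα, had 6.02 with IL-1β and 14.3 with vehicle (2.38-fold lower). Ikbkb, the catalytic IKKβ of the canonical pathway, had 40.1 with IL-1β and 28.6 with vehicle. Ikbkg, the regulatory subunit NEMO, had 23.8 with IL-1β and 32.7 with vehicle. Both lay within 1.5-fold, in opposite directions.

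Of the 8 adaptor and ubiquitin ligase genes measured in EGCs, 3 were higher and 1 was lower. Ripk2, the kinase that relays signals from the NOD sensors, had 19.0 with IL-1β and 6.64 with vehicle. Traf3, a brake on the non-canonical pathway, had 32.0 with IL-1β and 18.9 with vehicle (1.70-fold), and Traf2, an adaptor of the TNF receptors, had 10.4 with IL-1β and 6.46 with vehicle (1.61-fold). Tank, a TRAF-binding scaffold protein, was 1.76-fold lower at 10.8 with IL-1β and 18.9 with vehicle. The genes of the cIAP ubiquitin ligases, Birc2 (36.6 with IL-1β and 29.3 with vehicle) and Birc3 (11.8 with IL-1β and 8.79 with vehicle), stayed within the limit. So did the adaptor of the IL-1 receptor, Traf6 (5.62 with IL-1β and 6.41 with vehicle), and that of the TNF receptor, Ripk1 (30.9 with IL-1β and 28.9 with vehicle).

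Feedback inhibitors beyond the IκB genes were split. Tnip1, which binds A20 and ubiquitin chains, was at 164 with IL-1β and 51.6 with vehicle, a ratio that ranked 33 from the highest of the 13445 ratios. Zc3h12a, an endoribonuclease that degrades mRNAs of inflammatory genes such as Il6, was 2.37-fold higher at 25.3 with IL-1β and 10.7 with vehicle. Tnip2, a relative of Tnip1, was 1.89-fold lower at 7.27 with IL-1β and 13.8 with vehicle. Tnfaip3, the gene of the ubiquitin-editing enzyme A20 itself, was at 1.33 with IL-1β and 1.63 with vehicle, near the low end of the table. The deubiquitinase gene Cyld (16.7 with IL-1β and 16.9 with vehicle) and the IL-1 receptor signalling inhibitor Irak3 (10.9 with IL-1β and 8.45 with vehicle) were within the limit.

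Of the 4 receptor and sensor genes measured, Tnfrsf1b, the second TNF receptor, was 2.96-fold lower, at 6.98 with IL-1β and 20.6 with vehicle. Cd40, a costimulatory receptor of the TNF receptor family, was 1.55-fold higher at 4.76 with IL-1β and 3.08 with vehicle, and it came within the limit when 1 was added to each mean. The main TNF receptor Tnfrsf1a had 141 with IL-1β and 144 with vehicle, and the peptidoglycan sensor Nod1 had 21.4 with IL-1β and 23.3 with vehicle. The ratio of Tnfrsf1b was the lowest of the 36 NF-κB genes.

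Of the 4 effector genes, 3 were higher and none was lower. Icam1, an adhesion molecule that binds leukocyte integrins, was at 173 with IL-1β and 45.3 with vehicle and ranked 18 from the highest of the 13445 ratios. Vcam1, the adhesion molecule for integrin α4-bearing leukocytes, had 209 with IL-1β and 113 with vehicle (1.85-fold), and Tnfaip2, first known as a TNF-induced gene of endothelial cells, had 253 with IL-1β and 164 with vehicle (1.54-fold). Sod2, the mitochondrial superoxide dismutase and a standard NF-κB target, had 202 with IL-1β and 253 with vehicle, within the limit and on the lower side.

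**Figure D1:**
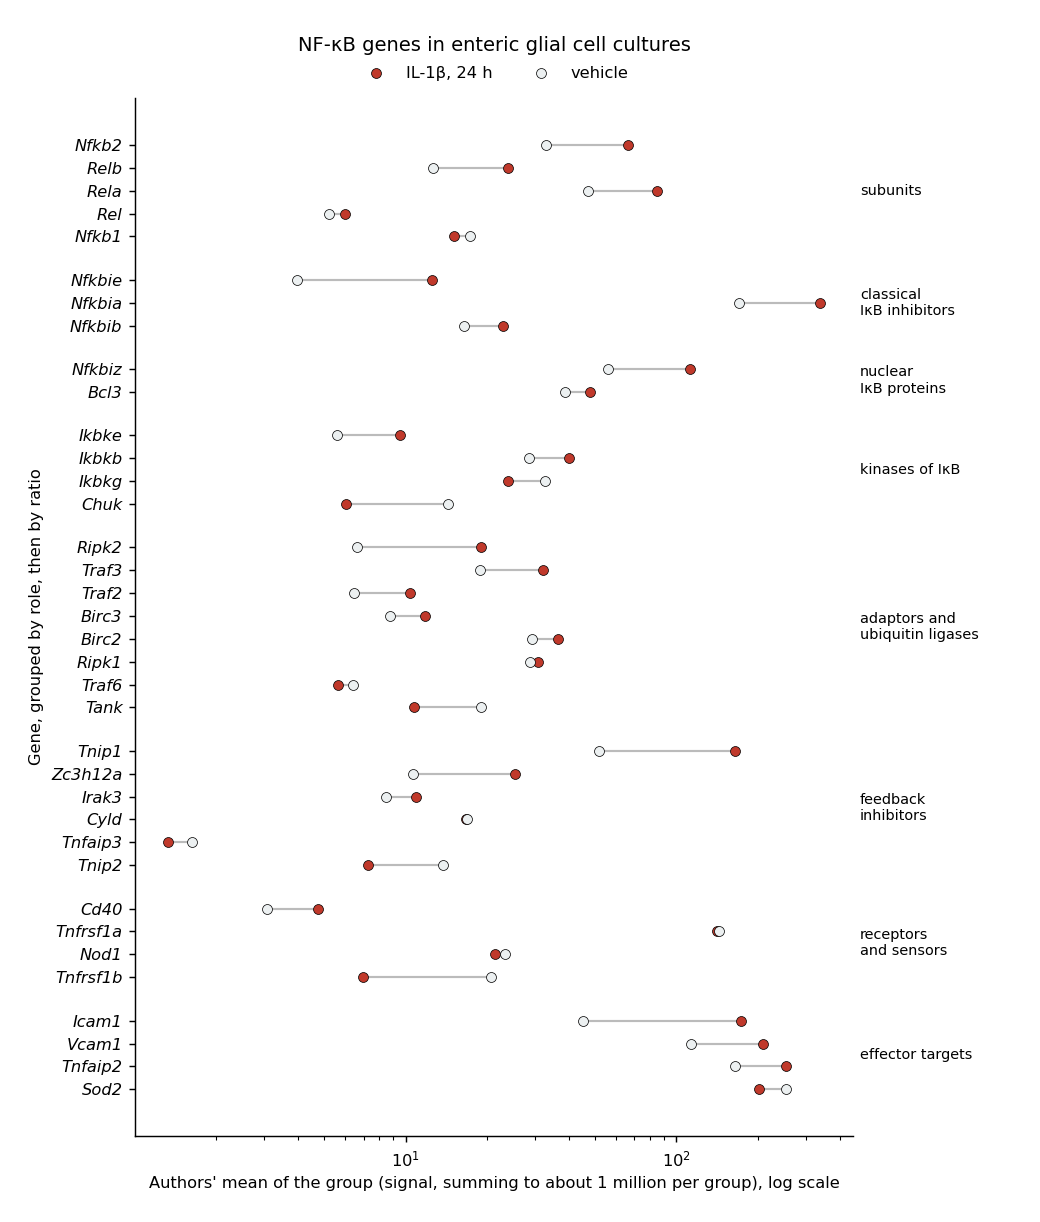
Authors' means of the 36 NF-κB genes measured in EGCs (horizontal axis, normalized signal on a log scale), grouped by role and ordered within a role by ratio, with a filled point for IL-1β, an open point for vehicle and a line between them. The longest lines to the right are those of Icam1 (173 with IL-1β and 45.3 with vehicle), Tnip1 and Nfkbie, and the longest to the left that of Tnfrsf1b (6.98 with IL-1β and 20.6 with vehicle), and a point has no error bar because each group has 1 mean.

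In BMDMs that received CM-IL1, 6 of the 39 NF-κB genes were past 1.5-fold higher than with RPMI (15.4%), against 8.46% of all 11197 genes kept, and 10 were past 1.5-fold lower (25.6%), against 22.4%. The share of lower genes was near that of all genes. Zc3h12a (3.56-fold), Nfkbia (2.54-fold), Tnfaip3 (2.19-fold) and Nod2 (2.14-fold) had the largest ratios upwards, and Nod1 (3.39-fold), Birc3 (2.53-fold), Relb (2.50-fold) and Ikbke (2.14-fold) the largest downwards. The median log2 ratio was -0.21 over the NF-κB genes and -0.19 over all genes. Centred on the median of all genes, the split of the NF-κB genes turned to 10 higher and 7 lower, and that of all genes to 1440 higher and 1618 lower, against 947 higher and 2508 lower as deposited. The balance of higher and lower genes in this comparison thus depended on the scaling.

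For the subunits, none was higher and 2 were lower with CM-IL1 than with RPMI. Relb had means of 7.93 with CM-IL1, 10.6 with CM-Veh and 19.9 with RPMI, and Rel had 17.7 with CM-IL1, 20.4 with CM-Veh and 28.5 with RPMI (1.61-fold lower with CM-IL1 than with RPMI, and within the limit after centring). Nfkb2 followed the same order at 36.0 with CM-IL1, 40.9 with CM-Veh and 51.4 with RPMI, within the limit. Rela (65.2 with CM-IL1, 66.6 with CM-Veh and 63.1 with RPMI) and Nfkb1 (20.1 with CM-IL1, 20.4 with CM-Veh and 17.8 with RPMI), the canonical pair, had nearly equal means in the 3 groups.

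The IκB genes went different ways. Nfkbia had a mean of 525 with CM-IL1, 322 with CM-Veh and 207 with RPMI, higher with each conditioned medium than with RPMI. Nfkbie had 6.93 with CM-IL1, 10.6 with CM-Veh and 12.7 with RPMI, 1.83-fold lower with CM-IL1 than with RPMI, and Nfkbib had 21.5 with CM-IL1, 25.2 with CM-Veh and 25.9 with RPMI. Among the nuclear IκB proteins, Bcl3 was 1.82-fold higher with CM-IL1 at 44.5, against 35.6 with CM-Veh and 24.5 with RPMI. Nfkbid, which had no row in the EGCs, had 15.8 with CM-IL1, 17.5 with CM-Veh and 11.8 with RPMI. Nfkbiz had 7.37 with CM-IL1, 6.53 with CM-Veh and 11.0 with RPMI, below RPMI with both media and past the limit only with CM-Veh (1.68-fold lower).

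Of the 4 kinase genes, Ikbke alone passed the limit. It had a mean of 29.1 with CM-IL1, 39.9 with CM-Veh and 62.2 with RPMI, lower with each conditioned medium. Ikbkb (56.8 with CM-IL1, 69.4 with CM-Veh and 58.5 with RPMI), Ikbkg (11.6 with CM-IL1, 14.4 with CM-Veh and 14.6 with RPMI) and Chuk (10.5 with CM-IL1, 11.4 with CM-Veh and 8.01 with RPMI) lay within 1.5-fold of RPMI with both media.

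Among the 9 adaptor and ligase genes, both cIAP genes were lower with each conditioned medium than with RPMI. Birc3 had 4.45 with CM-IL1, 6.25 with CM-Veh and 11.2 with RPMI, and Birc2 had 6.77 with CM-IL1, 7.86 with CM-Veh and 11.8 with RPMI (1.75-fold lower with CM-IL1). Traf6 was 1.503-fold higher with CM-IL1, at the limit itself, with means of 9.29 with CM-IL1, 7.40 with CM-Veh and 6.18 with RPMI, and it came within the limit when 1 was added to each mean. Traf1, an adaptor best known from activated immune cells, had 4.85 with CM-IL1, 2.09 with CM-Veh and 5.60 with RPMI, lowest with CM-Veh. Traf3 was highest with CM-Veh, with means of 8.97 with CM-IL1, 15.2 with CM-Veh and 11.9 with RPMI. Ripk2 had 10.8 with CM-IL1, 7.32 with CM-Veh and 7.22 with RPMI, just inside the limit for CM-IL1 over RPMI (1.49-fold). Traf2 (6.27 with CM-IL1, 6.70 with CM-Veh and 8.15 with RPMI), Ripk1 (56.4 with CM-IL1, 52.5 with CM-Veh and 53.7 with RPMI) and Tank (23.4 with CM-IL1, 22.3 with CM-Veh and 18.7 with RPMI) did not pass it in any BMDM comparison.

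The feedback inhibitor Zc3h12a had a mean of 31.5 with CM-IL1, 23.1 with CM-Veh and 8.85 with RPMI. Tnfaip3 had 3.99 with CM-IL1, 3.11 with CM-Veh and 1.82 with RPMI, in the same order but at low means. Neither Tnip1 (84.0 with CM-IL1, 79.4 with CM-Veh and 72.8 with RPMI) nor Tnip2 (19.8 with CM-IL1, 18.3 with CM-Veh and 16.8 with RPMI) passed the limit. Cyld (26.1 with CM-IL1, 27.9 with CM-Veh and 33.9 with RPMI) and Irak3 (7.54 with CM-IL1, 9.14 with CM-Veh and 10.7 with RPMI) were lowest with CM-IL1, also within it. In this group the 2 genes past the limit in BMDMs were both higher and none was lower.

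The sensors Nod1 and Nod2 lay on opposite sides. Nod1 had a mean of 1.54 with CM-IL1, 2.21 with CM-Veh and 5.23 with RPMI, whereas Nod2, which recognizes muramyl dipeptide, had 4.35 with CM-IL1, 2.72 with CM-Veh and 2.04 with RPMI. Cd40 was 1.58-fold lower with CM-IL1 (4.52) and 2.32-fold lower with CM-Veh (3.08) than with RPMI (7.14), and for CM-IL1 it came within the limit after centring or with 1 added to each mean. These 3 genes had low means, and among the 16 NF-κB genes past the limit for CM-IL1 over RPMI, 5 had both means under 10. Tnfrsf1a had 115 with CM-IL1, 120 with CM-Veh and 84.4 with RPMI, and Tnfrsf1b had 52.8 with CM-IL1, 60.5 with CM-Veh and 69.7 with RPMI, within the limit.

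None of the 4 effector genes was higher in BMDMs with CM-IL1 than with RPMI, and 2 were lower. Icam1 had a mean of 17.8 with CM-IL1, 24.6 with CM-Veh and 32.7 with RPMI (1.83-fold lower with CM-IL1 than with RPMI), and Tnfaip2 had 165 with CM-IL1, 150 with CM-Veh and 260 with RPMI (1.58-fold lower, and within the limit after centring). Vcam1 leaned the other way at 45.2 with CM-IL1, 38.0 with CM-Veh and 31.6 with RPMI. Sod2 had 82.5 with CM-IL1, 72.0 with CM-Veh and 87.6 with RPMI.

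**Figure D2:**
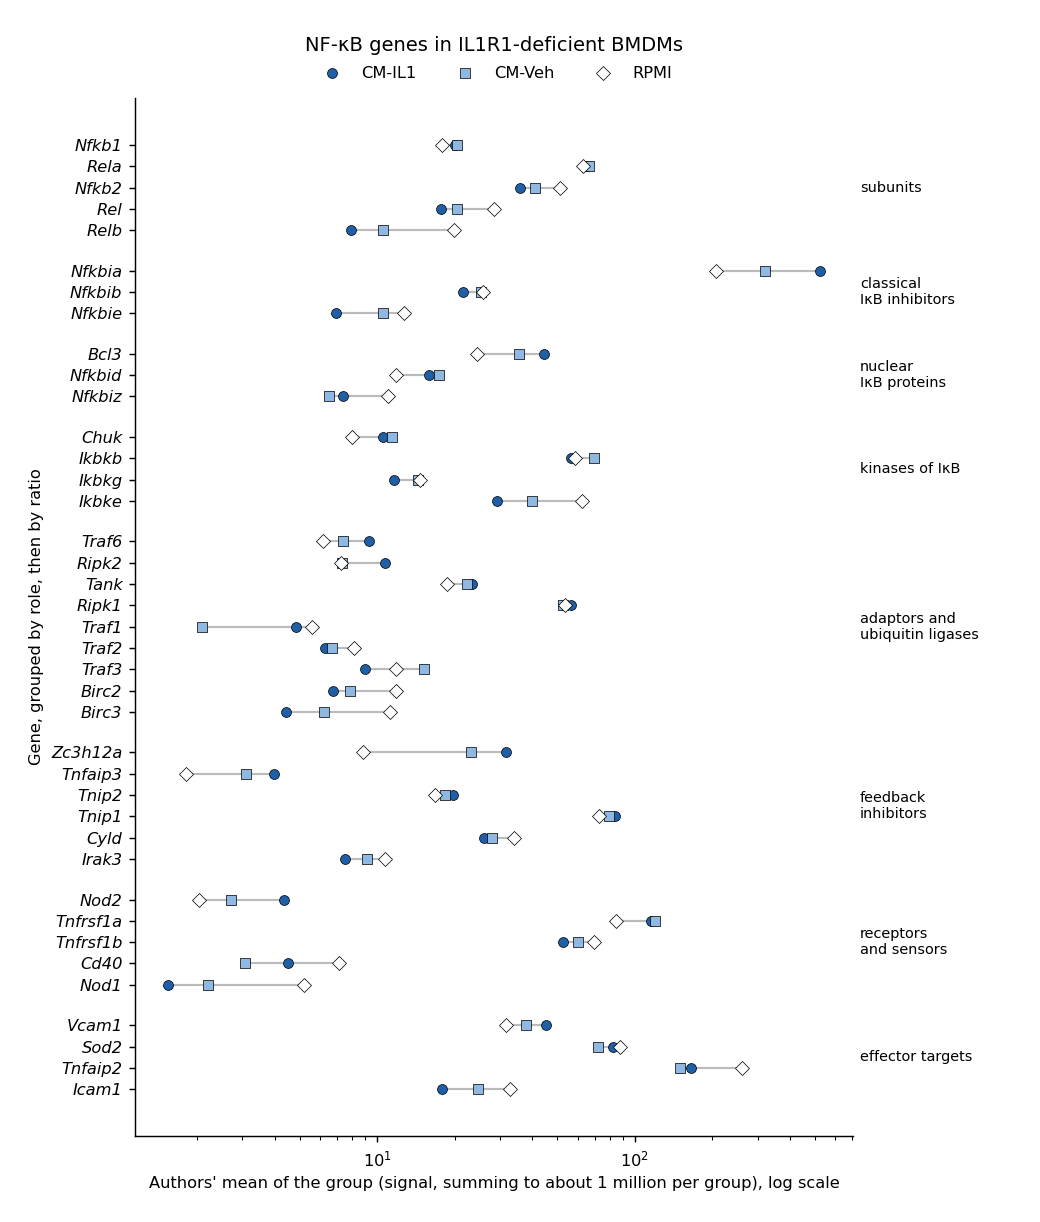
Authors' means of the 39 NF-κB genes in IL1R1-deficient BMDMs (horizontal axis, normalized signal on a log scale), grouped by role and ordered within a role by the ratio of CM-IL1 to RPMI, with circles for CM-IL1, squares for CM-Veh and diamonds for RPMI. Nfkbia (525 with CM-IL1, 322 with CM-Veh and 207 with RPMI) and Zc3h12a lie to the right of RPMI with both media, and Relb (7.93 with CM-IL1, 10.6 with CM-Veh and 19.9 with RPMI), Birc3, Ikbke and Nod1 lie to the left.

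CM-Veh alone, set against the same RPMI cells, gave 3 NF-κB genes past 1.5-fold higher (7.69%), against 8% of all 11200 genes, and 9 past 1.5-fold lower (23.1%), against 10.8%. The 3 higher genes, a share near that of all genes, were Zc3h12a (2.60-fold), Tnfaip3 (1.71-fold) and Nfkbia (1.56-fold). The other inhibitor genes Nfkbib, Nfkbie, Tnip1, Tnip2, Cyld and Irak3 stayed within the limit. Lower were Traf1 (2.68-fold), Nod1 (2.37-fold), Cd40, Relb (1.88-fold), Birc3 (1.80-fold), Tnfaip2 (1.74-fold), Nfkbiz, Ikbke (1.56-fold) and Birc2 (1.503-fold). With 1 added to each mean Tnfaip3 and Birc2 came within the limit, and Birc2 did so also after centring. The median log2 ratio was -0.03 over the NF-κB genes and -0.03 over all genes. Because both conditioned media are set against 1 group of RPMI cells, the 2 comparisons are not independent, and their values are given side by side only.

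Set against CM-Veh, CM-IL1 left 34 of the 39 NF-κB genes within 1.5-fold. Past it were 3 higher genes (7.69%), against 2.72% of all 11184 genes, and 2 lower genes (5.13%), against 8.33%. Higher were Traf1 (2.32-fold, 4.85 with CM-IL1 and 2.09 with CM-Veh), Nfkbia (1.63-fold, 525 with CM-IL1 and 322 with CM-Veh) and Nod2 (1.60-fold, 4.35 with CM-IL1 and 2.72 with CM-Veh). Lower were Traf3 (1.70-fold, 8.97 with CM-IL1 and 15.2 with CM-Veh) and Nfkbie (1.53-fold, 6.93 with CM-IL1 and 10.6 with CM-Veh). Nfkbia was the only one of the 3 higher genes with a mean of at least 10 in either group. With 1 added to each mean Nod2 and Nfkbie came within the limit, and Nfkbie did so also after centring and after leaving out the most abundant row. Centring moved the split of the NF-κB genes to 6 higher and 1 lower, and that of all genes to 506 and 538, against 304 and 932 as deposited. With the most abundant row left out, the NF-κB genes split into 5 higher and 1 lower. With means alone, these genes were not shown to differ between the conditioned media.

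**Figure D3:**
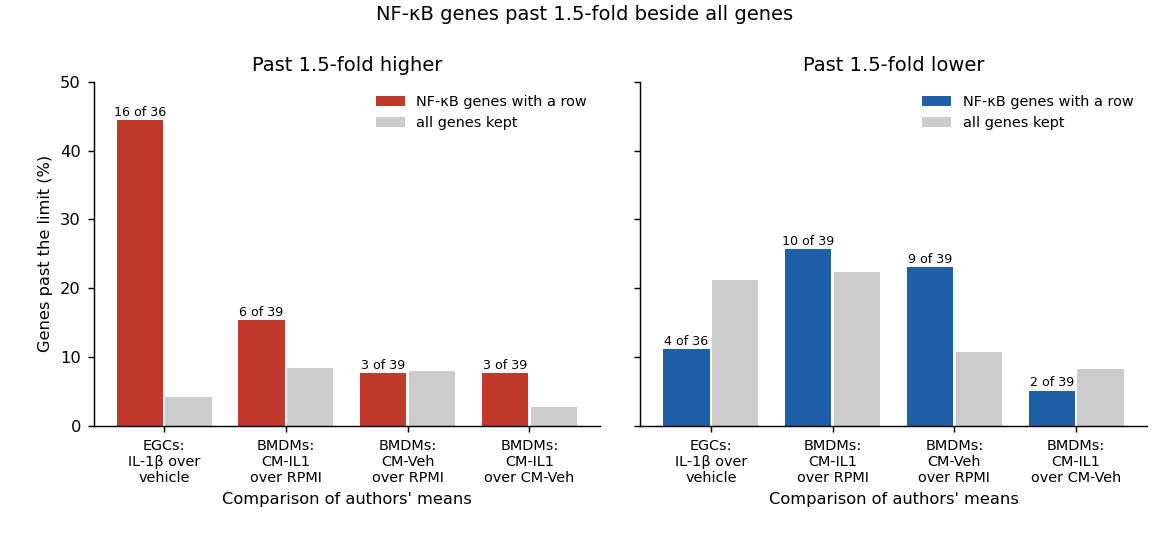
Percent of genes past 1.5-fold higher (left) and lower (right) in each of the 4 comparisons of authors' means, with coloured bars for the NF-κB genes that had a row (counts above the bars) and grey bars for all genes kept. In EGCs 44.4% of the NF-κB genes were higher, against 4.25% of all genes, and in BMDMs with CM-IL1 the share lower than with RPMI was 25.6%, against 22.4%.

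The 36 genes with a row in both tables were then compared between EGCs with IL-1β and BMDMs with CM-IL1, comparisons that share no library. Whether the 2 tables were normalized together is not known, so only ratios within a table are set side by side. Cell type, stimulus and time (24 h and 3 h) differ together and cannot be told apart. Nfkbia and Zc3h12a were past 1.5-fold higher in both, 12.5% of the 16 NF-κB genes higher in EGCs and 40% of the 5 higher in BMDMs, beside 25.4% and 12.7% over all genes kept in both tables. Another 6 genes were higher in the glia and lower in the macrophages: Icam1, Nfkbie, Relb, Ikbke, Cd40 and Tnfaip2. They made up 37.5% of the 16 genes higher in EGCs and 60% of the 10 lower in BMDMs, and after centring Cd40 and Tnfaip2 came within the limit in BMDMs. Over all 10314 genes kept in both tables, 73 genes had this pattern, 18.5% of those higher in EGCs and 3.27% of those lower in BMDMs. Nfkbiz stood close to the same pattern, 2.01-fold higher in EGCs and 1.49-fold lower in BMDMs. The 40% and 60% of the BMDM genes have to be read beside the share higher in EGCs to begin with. That share was 44.4% of the 36 NF-κB genes, while 394 of all 10314 genes were higher in EGCs. Much of the distance from 12.7% and 3.27% thus repeats the result in EGCs.

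The other genes past the limit passed it in 1 cell type only by these means, which is no test of a difference. Rela, Nfkb2, Tnip1, Ripk2, Traf2, Traf3, Vcam1 and Nfkbiz passed it upwards in EGCs and lay within it in BMDMs with CM-IL1 (22.2% of the 36, beside 2.14% of all genes), and Chuk, Tank, Tnip2 and Tnfrsf1b did so downwards (11.1%, beside 9.56%). Bcl3, Tnfaip3 and Traf6 were within it in EGCs and passed it upwards in BMDMs with CM-IL1 (8.33%, beside 5.57%), and Rel, Birc2, Birc3 and Nod1 did so downwards (11.1%, beside 14.7%). None of the 36 was lower in the glia and higher in the macrophages past the limit, and none was lower in both, patterns that 1.11% and 6.18% of all genes had. The 9 genes within 1.5-fold in both were Nfkb1, Nfkbib, Ikbkb, Ikbkg, Ripk1, Cyld, Irak3, Tnfrsf1a and Sod2 (25%, beside 59.0% of all genes).

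**Figure D4:**
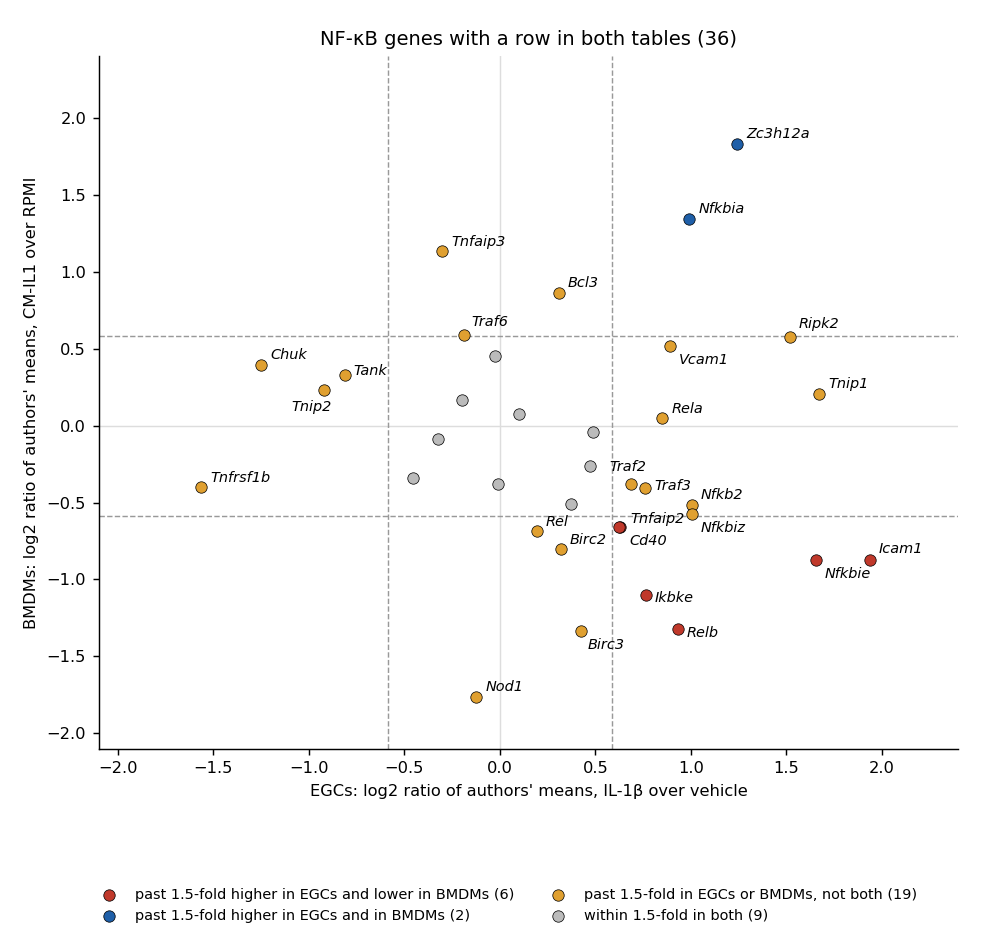
Log2 ratio of authors' means for the 36 NF-κB genes with a row in both tables, IL-1β over vehicle in EGCs (horizontal axis) and CM-IL1 over RPMI in BMDMs (vertical axis), with dashed lines at 1.5-fold and a point per gene. Zc3h12a and Nfkbia lie at the upper right, and the 6 red points at the lower right are Icam1, Nfkbie, Relb, Ikbke, Cd40 and Tnfaip2, the points of the last pair nearly on top of each other.

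To place these genes in the pathway, 2 further lists were counted. Of 59 other pathway genes measured in EGCs (receptors, upstream kinases, ubiquitin machinery), 1 was past 1.5-fold higher with IL-1β (1.69%, beside 4.25% of all genes) and 11 were lower (18.6%, beside 21.2% of all genes). The higher one was Il1r1, the signalling receptor of IL-1β itself (56.9 with IL-1β and 34.0 with vehicle). Among those with a vehicle mean of at least 10, the lowest ratios belonged to Commd1, which promotes degradation of RelA (2.02 with IL-1β and 11.1 with vehicle), Tollip, an inhibitor of IL-1 receptor signalling (5.94 with IL-1β and 29.6 with vehicle), and Usp21, a deubiquitinase (6.16 with IL-1β and 12.3 with vehicle). In BMDMs, 6 of 60 were higher (10%, beside 8.46% of all genes) and 5 lower (8.33%, beside 22.4%) with CM-IL1 than with RPMI. With CM-Veh, 6 were higher (10%, beside 8%) and 4 lower (6.67%, beside 10.8%). Malt1, a paracaspase that cleaves A20, had 37.5 with CM-IL1, 21.8 with CM-Veh and 14.3 with RPMI. The others named by size for CM-IL1 over RPMI were Casp8 (61.8 with CM-IL1 and 34.3 with RPMI), Tirap (21.4 with CM-IL1 and 13.5 with RPMI) and Tnfrsf11a, the receptor RANK, which was lower (38.2 with CM-IL1, 67.9 with CM-Veh and 57.3 with RPMI). For CM-Veh over RPMI they were Tirap (22.8 with CM-Veh and 13.5 with RPMI), Ltbr (119 with CM-Veh and 73.1 with RPMI) and Tbkbp1 (27.5 with CM-Veh and 17.8 with RPMI). Of the 60, 3 were higher (5%, beside 2.72%) and 4 lower (6.67%, beside 8.33%) with CM-IL1 than with CM-Veh, Peli1 (18.7 with CM-IL1 and 29.1 with CM-Veh) and Tnfrsf11a among the lower.

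A list of 55 other known target genes, cytokine and chemokine genes among them, was counted in the same way. In EGCs 17 of the 39 such genes with a row were past 1.5-fold higher with IL-1β (43.6%, beside 4.25% of all genes) and 4 were lower (10.3%, beside 21.2%). The neutrophil chemokine genes Cxcl2 (54.7 with IL-1β and 0.239 with vehicle) and Cxcl5 (1226 with IL-1β and 44.6 with vehicle) and the lymphocyte chemokine gene Cxcl10 (14.2 with IL-1β and 0.678 with vehicle) had the largest ratios. Cxcl2 and Cxcl10 passed the filter by their IL-1β mean alone. Their vehicle means were under 1, where the lowest mean of any group was 0.170, so the size of these ratios is uncertain. The Notch ligand gene Jag1 was lower (1.72 with IL-1β and 10.8 with vehicle). In BMDMs 21 of 39 were higher (53.8%, beside 8.46% of all genes) and 2 lower (5.13%, beside 22.4%) with CM-IL1 than with RPMI, and the counts were the same for CM-Veh over RPMI (beside 8% and 10.8%). Il1b had a mean of 382 with CM-IL1, 67.9 with CM-Veh and 7.50 with RPMI. The monocyte chemokine genes Ccl7 (328 with CM-IL1, 154 with CM-Veh and 8.76 with RPMI) and Ccl2 (76.8 with CM-IL1, 41.0 with CM-Veh and 3.93 with RPMI) followed the same order. Irf1 (10.9 with CM-IL1, 14.4 with CM-Veh and 32.7 with RPMI) and Gadd45b (8.68 with CM-IL1, 9.36 with CM-Veh and 16.0 with RPMI) were lower with each conditioned medium than with RPMI. Between the conditioned media, 10 of 39 were past 1.5-fold higher with CM-IL1 (25.6%, beside 2.72% of all genes) and 1 was lower (2.56%, beside 8.33%). Among those with a mean of at least 10 in the higher group, the largest ratios were those of Il1b (5.62-fold), the immediate-early gene Ier3 (686 with CM-IL1 and 308 with CM-Veh) and Cxcl2 (347 with CM-IL1 and 161 with CM-Veh). The lower one was Plau, the urokinase gene (22.5 with CM-IL1 and 38.5 with CM-Veh). The 39 genes were not the same in EGCs and BMDMs. Cxcl5 and Cxcl10, for example, were measured only in EGCs and Il1b only in BMDMs. Over these differing sets, the median log2 ratio of this list was 0.49 in EGCs with IL-1β, beside 0.45 for the NF-κB genes. It was 0.72 in BMDMs with CM-IL1 over RPMI, beside -0.21 for the NF-κB genes. The list was drawn up with these data known, so its direction is not independent evidence.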

How the data were processed

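Sequencing data of 18 libraries of 3′ mRNA tags were analysed from the 2 tables the authors deposited. The submitters' processing notes name cutadapt, STAR and Partek with the build mm10 but no versions. The sources used here do not give the normalization. The tables hold 1 least-squares mean per group, a normalized signal that the authors computed from 3 (EGCs) or 4 (BMDMs) libraries, and 0 columns hold values per library. Whether the signal is CPM or TPM is not told, and neither depth nor spread is known for any library. Another 3 columns of means were repeated copies. The remaining 16 columns hold the p-values, adjusted p-values, ratios and folds of the authors' own comparisons and were not used.

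Samples were grouped by their labels. For each of 4 comparisons, the ratio of the 2 means was computed in Python 3.11.15 (numpy 2.4.6, pandas 2.3.3; figures with matplotlib 3.10.9), over genes with a mean of at least 1 in either group and without a pseudocount. A gene was counted as higher or lower past 1.5-fold. No test was made, since a mean has no spread, and the ratio and counting steps were tested on simulated data. The alternatives were a pseudocount of 1, no filter, a mean of at least 10, centring on the median ratio, rescaling without the most abundant row (AY036118, 21.4 to 25.1% of a column), and a limit of 2-fold. Every NF-κB gene is named with its means. Of the 2 further lists, the 3 largest ratios each way among genes past 1.5-fold with a mean of at least 10 in the higher group are named in each comparison. The NF-κB genes and all lists were chosen with earlier results of these data known, and the lists also hold genes that the study names for these cells. Promoter sequences came from RefSeq, build GRCm38.p6, and genes were matched by symbol.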

Additional observations from a re-analysis of the deposited data

How the results depend on the processing

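No paired analysis was possible because the tables hold 1 mean per group, and leaving out single replicates was not possible for the same reason. With a limit of 2-fold instead of 1.5-fold, 7 NF-κB genes were higher and 2 lower in EGCs, 4 and 4 for CM-IL1 over RPMI, 1 and 3 for CM-Veh over RPMI, and 1 and 0 for CM-IL1 over CM-Veh. Centring on the median of all genes moved the median log2 ratio of the NF-κB genes to 0.58 in EGCs, to -0.0229 for CM-IL1 over RPMI and to 0.0851 for CM-IL1 over CM-Veh. It gave 10 higher genes for CM-IL1 over RPMI, and 6 higher and 1 lower for CM-IL1 over CM-Veh. Rescaling without the most abundant row gave 5 higher and 1 lower genes for CM-IL1 over CM-Veh and left the counts of the other 3 comparisons as they were. With a mean of at least 10 in either group, 14 NF-κB genes were higher and 4 lower in EGCs, since fewer low genes were counted. Counts were 3 and 8 for CM-IL1 over RPMI, 2 and 6 for CM-Veh over RPMI, and 1 and 2 for CM-IL1 over CM-Veh. With 1 added to each mean, the counts were 15 and 4 in EGCs and 5 and 9 for CM-IL1 over RPMI. For CM-Veh over RPMI this gave 2 and 8, and for CM-IL1 over CM-Veh 2 and 1. Dropping the filter changed no count of NF-κB genes. No NF-κB gene past 1.5-fold turned to the other side under these alternatives. Without values per library, the precision of each mean stays unknown, most of all for genes with means under 10.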
